A study of Mus musculus with 12 samples.

Results

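SOX and forkhead (FOX) proteins are transcription factors, and the genes that encode them make up the set described here. A gene belonged to it when its symbol in the deposited count table was Sox followed by a number, or Fox followed by a letter from a to s and a number; Foxm1, a gene of the cell cycle, was left out. The table held 62 such genes among 49671 gene entries, 19 SOX and 43 forkhead genes. A member was called expressed when it had at least 10 counts in at least 3 of the 12 libraries. By that rule 37 members were expressed, 8 SOX and 29 forkhead genes, and 25 were silent.

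The cells were ImPSC-1, a mouse line that the labels describe as pancreatic mesenchymal cells, kept as stable cultures in serum. There were 4 groups of 3 libraries. In shKitl cells a short hairpin RNA lowered Kitl, which encodes stem cell factor, the protein that binds and activates KIT; shCtrl cells, labelled wild type, carried the control hairpin vector. Kitl_OE cells overexpressed Kitl, and Egfp_OE cells overexpressed Egfp, the gene of a green fluorescent protein, in its place. No source used here gives the promoters of the vectors or says whether a group was 1 clone. Whether the 3 libraries within each group were grown separately is not stated either, and the p-values below thus reflect only the variation among these libraries, possibly technical. Each description also carries a P number, whose meaning the labels do not give: 13, 14 and 15 in shKitl, 14, 15 and 16 in shCtrl, 18, 19 and 20 in Kitl_OE, and 17, 18 and 19 in Egfp_OE replicates 1, 2 and 3.

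SOX proteins bind and bend DNA through an HMG box, and forkhead proteins bind it through a winged helix, a fold close to that of linker histones. Many members of both families act as switches of cell identity in the embryo. In the gut and pancreas, FOXA proteins open chromatin in the endoderm and SOX9 keeps progenitors and duct cells, while FOXF1, FOXF2 and FOXL1 act in the surrounding mesenchyme downstream of Hedgehog signals. FOXO proteins work differently: they are present in most cells and are driven out of the nucleus when growth factor receptors, KIT among them, activate AKT.

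Reads counted in genes came to between 24979742 and 33517686 per library. Kitl, the targeted gene, averaged 27 ± 2.88 CPM in shKitl cells, against 74.5 ± 1.65 CPM in shCtrl cells and 123 ± 7.32 CPM in Kitl_OE cells, against 58.8 ± 23.4 CPM in Egfp_OE cells (SD, n = 3 each). Kit, the receptor gene, had 0 to 2 counts in every library. Markers of pancreatic stellate cells and fibroblasts, a list chosen here, were present: all 12 were tested, and their summed CPM ran from 8616 to 21088 in shKitl, 7222 to 10099.6 in shCtrl, 23287 to 27793 in Kitl_OE and 6852 to 9254 in Egfp_OE libraries. The sums hide a split: in Kitl_OE against Egfp_OE cells 6 of the 12 rose and 1 fell in the test described below. Of all genes 15.4% rose and 18.9% fell. Egfp_OE replicate 2 stood apart from the other libraries. It had 31.8 CPM of Kitl, against 72.5 and 72.3 in the other Egfp_OE and 25.1 to 30.3 in shKitl libraries. It held 1.35% of its counts in spike-in RNA, against 0.446% to 0.684% in the other 11, and its summed TPM of forkhead genes was 291, against 511 and 601 in the other Egfp_OE libraries. Counts of members called are therefore given with and without it.

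On the authors' TPM, which divides by gene length and so allows levels of different genes to be compared, the highest mean over the 12 libraries was that of Foxk2 at 88.5 TPM. Other high means were those of Sox4 at 58.3, Foxp4 at 44.4, Foxf2 at 43.6, Foxf1 at 43.2, Foxo4 at 36.6 and Foxo3 at 33.3 TPM. These ranks hide very different spreads. Foxk2, a forkhead repressor of metabolic and autophagy genes, ranged only from 48 to 142 TPM, whereas Foxf1 ranged from 3.18 to 121 TPM. The lowest expressed member was Foxp3, the factor of regulatory T cells, at 0.321 TPM; it overlaps Ppp1r3f and other genes, so its few counts are uncertain. Between these ends lay broadly active genes such as Foxj2, Foxj3, Foxk1, Foxn2 and Foxp1, and genes of restricted patterns such as Sox2, Sox9, Foxc2 and Foxd1.

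**Figure D1:**
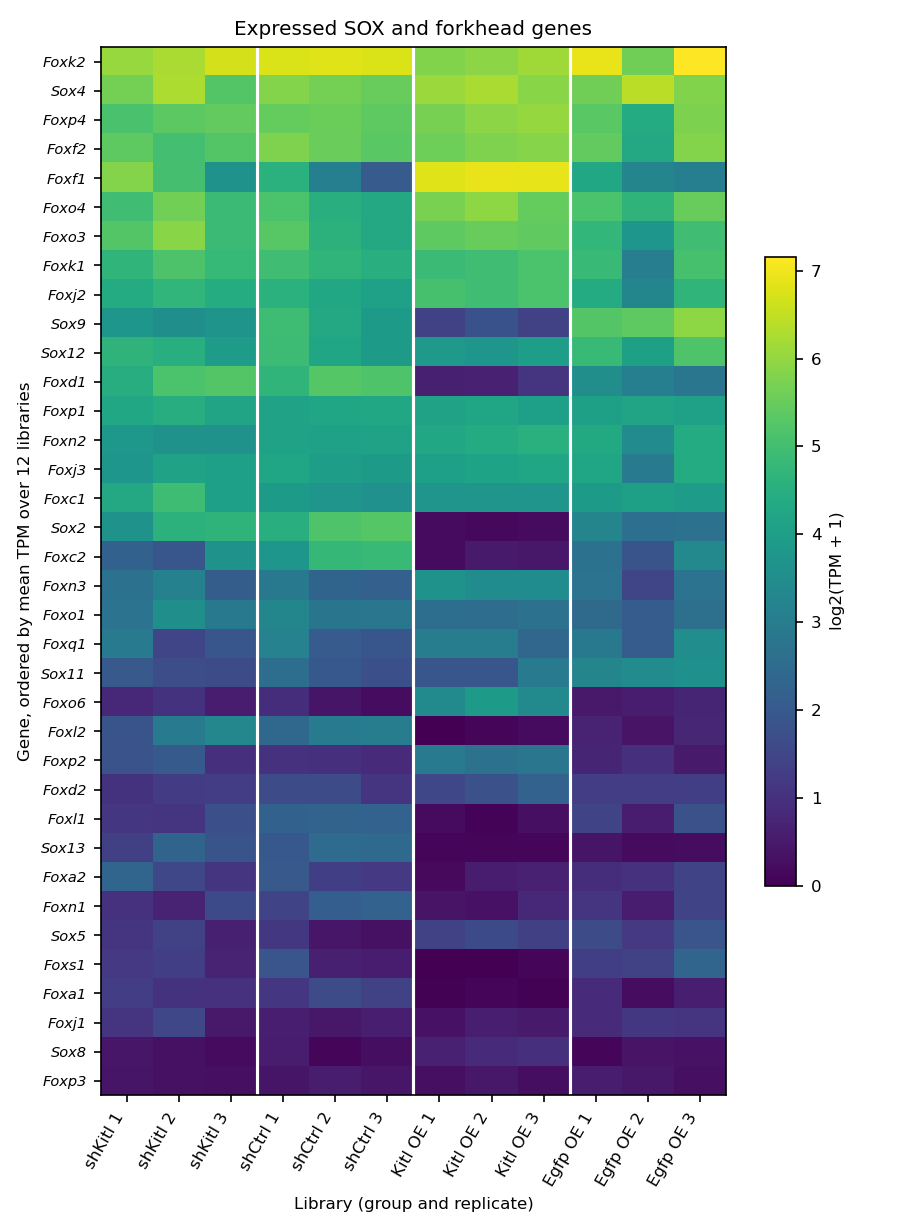
Each row is 1 of 36 of the 37 expressed members, ordered by mean TPM, and each column 1 library; colour gives log2(TPM + 1). Foxk2, Sox4 and Foxp1 have a similar colour in all 4 groups, whereas Sox9, Sox2, Foxd1 and Foxc2 are dark and Foxf1, Foxo6 and Foxp2 bright in the Kitl_OE columns.

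The 25 silent members included whole subgroups. Among the SOX genes they were Sox1 and Sox3, relatives of Sox2; Sox10, a neural crest and glial relative of Sox9; Sox6, the partner of Sox5 in cartilage; the endothelial genes Sox7, Sox17 and Sox18; and Sox14, Sox15, Sox21 and Sox30. The silent forkhead genes were Foxa3, Foxb1, Foxb2, Foxd3, Foxd4, Foxe1, Foxe3, Foxh1, Foxi1, Foxi2, Foxi3, Foxn4, Foxr1 and Foxr2. No silent member reached more than 7 counts in any library. Of the 25, 10 had no count at all (Sox1, Sox14, Foxb1, Foxb2, Foxe1, Foxe3, Foxi1, Foxi2, Foxi3 and Foxr1), which allows a level of up to 0.00901 CPM over the 12 libraries (3 counts, counting error only). All 37 expressed members and no silent member passed the low-count filter of the test, and any difference in the silent members between groups was not detectable at this depth.

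The comparison of Kitl_OE with Egfp_OE asked what differs in cells that carry more Kitl. Most of the expressed members differed: 22 of 37 (59.5%) passed an adjusted p of 0.05 in edgeR's quasi-likelihood test, against 34.3% of all 15271 genes tested. Of these, 8 rose (15.4% of all genes rose) and 14 fell (18.9% of all genes fell). The median log2 fold change of the 37 was -0.20, and that of all genes -0.07. In 28 members the 3 Kitl_OE libraries lay outside the range of the 3 Egfp_OE libraries, 14 above it (24.9% of all genes) and 14 below it (25.6%). Among the largest falls were those of Foxs1, Sox2, Sox9 and Foxc2, and the largest rises those of Foxo6, Foxf1 and Foxp2. In bulk RNA, fewer cells that express a gene and less of its RNA per cell cannot be told apart.

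Some of these calls depended on the processing. Under scaling to spike-in RNA 12 members passed, 4 higher and 8 lower, and 14 passed on log2(TPM + 1). Over all genes the 5236 calls became 2351 under spike-in scaling and 4020 on log2(TPM + 1). Spike-in scaling ended the calls of Foxa2, Foxj2, Foxk2, Foxl2, Foxn3, Foxo3, Foxp4, Sox11, Sox12 and Sox13, and log2(TPM + 1) those of Foxa1, Foxa2, Foxk2, Foxl2, Foxo3, Foxp4, Sox12 and Sox13. Without Kitl_OE replicate 1, and likewise without Kitl_OE replicate 2, 14 passed. Without Egfp_OE replicate 2 the count was also 22, 9 higher and 13 lower, with Foxa2 lost and Foxd2 gained. The calls over all genes in these fits were 3501, 3562 and 6150, in that order. The 10 members that passed under all 23 alternatives tried, wherever their filter kept the gene, included Foxf1, Foxo6 and Foxp2, which rose, and Foxc2, Foxd1, Foxl1, Foxs1, Sox2 and Sox9, which fell.

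**Figure D2:**
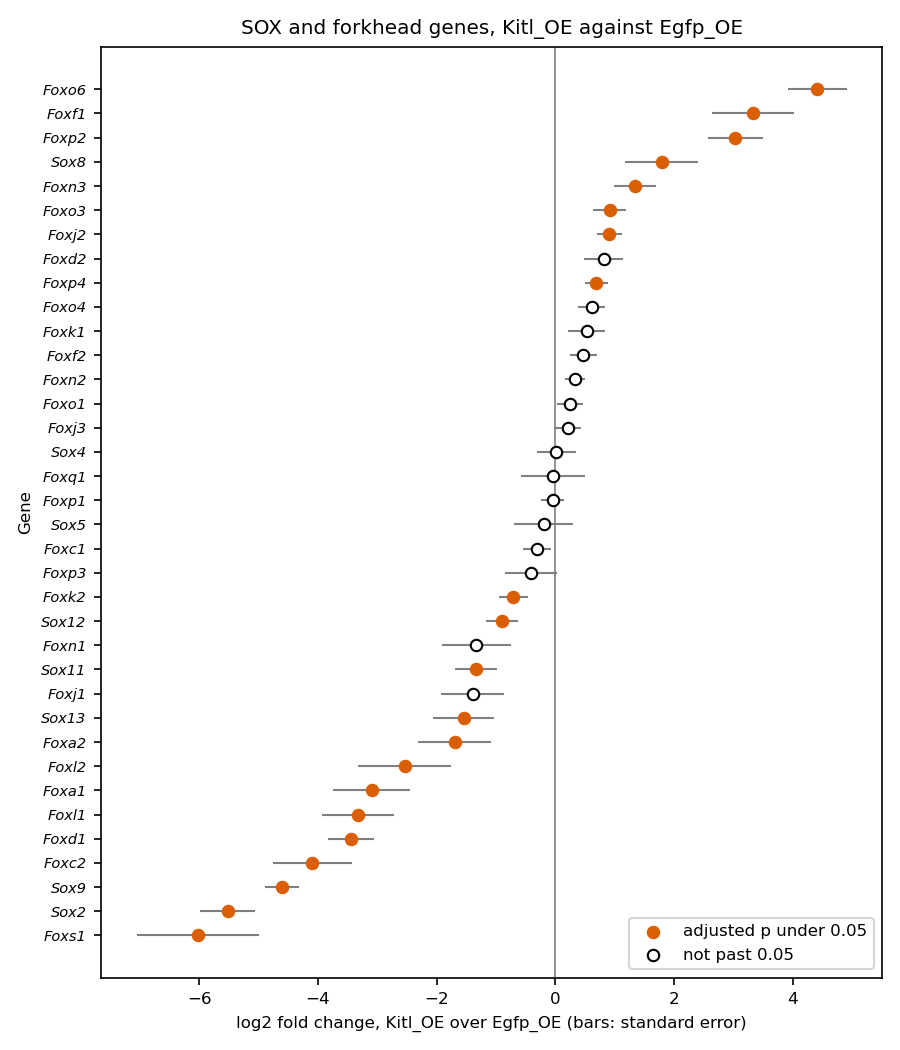
Points give the log2 fold change of 36 expressed members in Kitl_OE over Egfp_OE cells and bars its standard error; filled points passed an adjusted p of 0.05 in edgeR's quasi-likelihood test. The filled points run from Foxs1 at -6.02, fitted on 1 count in Kitl_OE cells, to Foxo6 at 4.42, and the broadly active genes Sox4, Foxp1 and Foxj3 sit near 0.

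Among the SOX genes, 6 of 8 passed in Kitl_OE cells, 5 lower and 1 higher. Sox9 (ENSMUSG00000000567, chromosome 11, 112782224 to 112787760, plus strand; GRCm38, as for all coordinates here) encodes the factor that drives cartilage and maintains duct and progenitor cells. It had 2.49, 3.48 and 2.25 CPM (read counts as a rate per TMM-scaled library size) in the Kitl_OE libraries and 50.9, 74.4 and 75.3 CPM in the Egfp_OE libraries. Every Kitl_OE library was far below every Egfp_OE library (log2 fold change -4.61, SE 0.29, adjusted p = 2.13e-06). In the hairpin lines Sox9 lay between these levels, at 18.8, 14.2 and 16.1 CPM in shKitl and 36.6, 25.3 and 20.3 CPM in shCtrl libraries. All shKitl values were below all shCtrl values, but the difference did not pass (log2 fold change -0.74, SE 0.25, adjusted p = 0.235).

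Sox2 (ENSMUSG00000074637, chromosome 3, 34650405 to 34652461, plus strand) encodes a factor of pluripotent and neural stem cells. It had 0.117, 0.0733 and 0.102 CPM in Kitl_OE, 5.90, 4.69 and 3.39 CPM in Egfp_OE, 8.71, 15.2 and 16.3 CPM in shKitl and 13.3, 23.7 and 27.6 CPM in shCtrl libraries. Sox2 was thus close to absent from Kitl_OE cells, with 8 counts over the 3 libraries, and the groups of the overexpression pair did not overlap (log2 fold change -5.52, SE 0.47, adjusted p = 1.49e-05). The overlapping long RNA gene Sox2ot had 2 to 11 counts per group. The 250 bases upstream of the RefSeq start of Sox2 on GRCm38.p6, which lies 410 bases before the GENCODE start given above, are shown with those of Foxd1 because both genes fell in Kitl_OE against Egfp_OE cells and in Egfp_OE against shCtrl cells; capitals mark the word CCAAT (or ATTGG on the other strand) and, where present, TATAA (or TTATA).
Sox2 promoter, chr3:34649745-34649994, plus strand: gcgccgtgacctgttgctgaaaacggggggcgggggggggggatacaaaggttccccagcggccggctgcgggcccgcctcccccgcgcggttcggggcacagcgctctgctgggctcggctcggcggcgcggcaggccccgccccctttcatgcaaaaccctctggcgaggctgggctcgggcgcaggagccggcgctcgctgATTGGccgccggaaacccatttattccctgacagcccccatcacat
Foxd1 promoter, chr13:98353995-98354244, plus strand: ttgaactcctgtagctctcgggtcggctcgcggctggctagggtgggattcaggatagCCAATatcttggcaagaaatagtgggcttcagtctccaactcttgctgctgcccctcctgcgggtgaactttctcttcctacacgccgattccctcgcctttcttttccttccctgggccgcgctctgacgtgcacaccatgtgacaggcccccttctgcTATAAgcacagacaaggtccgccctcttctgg
RefSeq windows were matched for 41 of the 62 members. The Sox2 window is 72.0% and the Foxd1 window 57.2% G or C, against a median of 52.4% over all promoter windows. CCAAT was in 13 of the 29 windows of expressed members (44.8%) and in 33.8% of the 32851 windows of all genes, and TATAA in 17.2% and 22.8%; a match of letters shows no binding.

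Foxd1 (ENSMUSG00000078302, chromosome 13, 98354242 to 98359305, plus strand), a forkhead gene of the stromal progenitors of the kidney, followed a like pattern. It had 0.506, 0.476 and 0.956 CPM in Kitl_OE, 8.67, 8.17 and 4.46 CPM in Egfp_OE, 18.4, 26.7 and 29.1 CPM in shKitl and 18.1, 30.3 and 31.1 CPM in shCtrl libraries. Its groups were ordered, without overlap, with Kitl_OE lowest, Egfp_OE next and both hairpin lines highest, and the shKitl and shCtrl values overlapped (log2 fold change -3.44, SE 0.38, adjusted p = 8.07e-05 for Kitl_OE against Egfp_OE).

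Markers of neural progenitors moved in the same direction. Of the 10 genes in the list of pluripotent and neural progenitor markers 5 were tested, and 4 of them (Nes, Pax6, Msi1 and Fabp7) fell in Kitl_OE against Egfp_OE cells. Their list summed to 35.6 to 52.5 CPM in Kitl_OE, 168 to 193 CPM in Egfp_OE, 109.7 to 233 CPM in shKitl and 247 to 406 CPM in shCtrl libraries. The pluripotency genes Zfp42 and Sall4 had no count in any group's libraries, and the part of such cells in the results for Sox2 was not tested.

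The SOXC genes, which act in immature neurons and mesenchyme, split: Sox11 and Sox12 fell and Sox4 did not pass. Sox4 (ENSMUSG00000076431, chromosome 13, 28948919 to 28953713, minus strand), the SOX gene with the highest TPM, had 119, 124 and 92.3 CPM in Kitl_OE and 75.7, 177 and 79.2 CPM in Egfp_OE libraries, and 85.9, 116 and 57 CPM in shKitl and 79.8, 77.2 and 75.1 CPM in shCtrl libraries. The highest Sox4 value of all was that of Egfp_OE replicate 2, the ranges overlapped, and no comparison passed (log2 fold change 0.02, SE 0.32, adjusted p = 0.973 for Kitl_OE against Egfp_OE). Sox11 had 8.44, 7.80 and 18.6 CPM in Kitl_OE and 23.5, 36.6 and 27.9 CPM in Egfp_OE libraries, a fall with no overlap (log2 fold change -1.33, SE 0.36, adjusted p = 0.0143). That call was lost without any of Kitl_OE replicates 1 and 2 (log2 -1.13 to -1.10). In the hairpin lines Sox11 had 8.92, 5.87 and 5.90 CPM in shKitl and 12.4, 7.96 and 6.95 CPM in shCtrl libraries, near the Kitl_OE level. Sox12 had 22.1, 19.2 and 22.1 CPM in Kitl_OE, 39.9, 30.7 and 47.3 CPM in Egfp_OE, 38.6, 30.4 and 20.4 CPM in shKitl and 38.4, 25.2 and 21.7 CPM in shCtrl libraries. It fell in Kitl_OE cells by less than Sox11 (log2 fold change -0.89, SE 0.27, adjusted p = 0.0239), and the call was lost without any of Kitl_OE replicates 1, 2 and 3 or Egfp_OE replicate 3 (log2 -0.91 to -0.74). The difference between Sox11 and Sox12 was not tested.

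In the SOXD and SOXE groups Sox13 fell and Sox8 rose. Sox13 (SOXD), known for its part in T cell and vessel development, had 0.117, 0.110 and 0.102 CPM in Kitl_OE, 0.458, 0.280 and 0.235 CPM in Egfp_OE, 2.42, 5.36 and 3.62 CPM in shKitl and 3.75, 6.58 and 6.74 CPM in shCtrl libraries. Every hairpin library was above every library of the overexpression lines, and Sox13 fell in Kitl_OE against Egfp_OE cells (log2 fold change -1.55, SE 0.51, adjusted p = 0.0353). That call was lost without any of Kitl_OE replicates 1, 2 and 3 or Egfp_OE replicate 1 (log2 -1.57 to -1.19). The call rested on 3, 3 and 3 counts in Kitl_OE and 16, 7 and 7 counts in Egfp_OE libraries. DESeq2 did not call Sox13 there (log2 fold change -1.59, adjusted p = 0.0547). Sox5 (SOXD), which helps SOX9 in cartilage, did not pass edgeR's test in any comparison. DESeq2 called it in Egfp_OE against shCtrl cells (log2 fold change 1.86, adjusted p = 0.00557). Its group means were 8.65 ± 1.26 CPM in Kitl_OE, 9.90 ± 1.74 CPM in Egfp_OE, 5.31 ± 2.56 CPM in shKitl and 2.69 ± 2.21 CPM in shCtrl cells (SD, n = 3 each). Sox8 (SOXE), a glial and testis gene, was the SOX gene that rose in Kitl_OE cells, at a very low level: its means were 0.855 ± 0.183 CPM in Kitl_OE and 0.252 ± 0.158 CPM in Egfp_OE cells (log2 fold change 1.79, SE 0.62, adjusted p = 0.0428). The call was lost without any of Kitl_OE replicates 1, 2 and 3, any of Egfp_OE replicates 1 and 3, shKitl replicate 2 or shCtrl replicate 3 (log2 1.36 to 1.96). An antisense gene, 2810468N07Rik, overlaps Sox8 and had 72 counts in Kitl_OE and 67 in Egfp_OE libraries, against 71 and 21 counts of Sox8 in the same groups. Since the strand setting is not given, reads of the shared bases cannot be assigned to either gene. Of the 7 Schwann and neural crest markers tested of 10, 4 rose and 2 fell in Kitl_OE against Egfp_OE cells; the list summed to 239 to 273 CPM in Kitl_OE and 59.5 to 97.7 CPM in Egfp_OE libraries, Mal was at 0 in all, and the part of these cells in the value of Sox8 was not tested.

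None of the tested targets of SOX9 in cartilage fell with it. Of 17 such genes, 7 were tested in Kitl_OE against Egfp_OE cells: 3 rose, and their median log2 fold change was 0.74 (all genes -0.07). Matn3, a cartilage matrilin, rose by log2 3.06 (SE 0.61, adjusted p = 0.0029), Col11a1, a fibrillar collagen gene, by 1.82 (adjusted p = 0.0114), and Wwp2, a ubiquitin ligase gene, by 0.74 (adjusted p = 0.00105). The call of Wwp2 was lost under scaling to spike-in RNA. Of Acan and Hapln1, defining genes of cartilage, Hapln1 had no count in any library. Acan had none in Kitl_OE and shCtrl libraries. None of the 7 passed in the other comparisons. In shKitl against shCtrl cells, where 0% of all genes passed, their median log2 fold change was 0.69 (all genes 0.05). In Egfp_OE against shCtrl cells it was 0.10 (all genes 0.05). Duct and endoderm markers, the other setting of SOX9, were nearly absent: 4 of 12 were tested, none passed in any of the 3 comparisons, and the list summed to 4.90 to 11.9 CPM in Kitl_OE and 4.93 to 6.53 CPM in Egfp_OE libraries. Pdx1, Hnf4a, Onecut1 and Prox1 were at 0 in Kitl_OE libraries, and Pdx1 in Egfp_OE libraries.

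TCF and LEF proteins are HMG-box relatives that SOX proteins can oppose at beta-catenin, and 13 of 15 genes of that list were tested. In Kitl_OE against Egfp_OE cells 2 rose and 5 fell, with a median log2 fold change of -0.24. Lef1 averaged 0.155 ± 0.0680 CPM in Kitl_OE cells, against 6.51 ± 0.185 CPM in Egfp_OE cells (SD, n = 3 each; log2 fold change -5.33, adjusted p = 8.36e-06). Tcf7 averaged 0.882 ± 0.182 CPM in Kitl_OE cells, against 8.44 ± 1.72 CPM in Egfp_OE cells (log2 fold change -3.26, adjusted p = 6.02e-05). The corepressor genes split, with Tle1 lower by log2 -1.45 (adjusted p = 0.00012) and Tle4 higher by 1.12 (adjusted p = 0.00455). The call of Tle4 was lost under scaling to spike-in RNA. Sox9, Sox2 and Sox11 thus fell in the same cells as Lef1 and Tcf7. None of the 13 passed in shKitl against shCtrl cells, and in Egfp_OE against shCtrl cells 1 did, Tle1 (log2 fold change 0.97, adjusted p = 0.0309); its call was lost without any of Kitl_OE replicates 1, 2 and 3, Egfp_OE replicate 3 or any of shCtrl replicates 2 and 3 (log2 0.82 to 0.99).

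Foxf1, Foxc2 and Foxl1 lie side by side on chromosome 8, and in Kitl_OE cells Foxf1 rose while both of its neighbours fell. Foxf1 (ENSMUSG00000042812, chromosome 8, 121084386 to 121088144, plus strand) encodes the main forkhead factor of visceral mesenchyme. It had 99.8, 99.8 and 95.1 CPM in Kitl_OE libraries and 14.5, 9.14 and 5.50 CPM in Egfp_OE libraries (log2 fold change 3.34, SE 0.69, adjusted p = 0.00357). The Kitl_OE values were close to each other and all above the Egfp_OE values. Foxc2 (ENSMUSG00000046714, chromosome 8, 121116171 to 121118895, plus strand), needed for lymphatic valves and for mesenchyme of the skeleton, had 0.156, 0.403 and 0.341 CPM in Kitl_OE and 4.84, 3.17 and 7.65 CPM in Egfp_OE libraries (log2 fold change -4.09, SE 0.66, adjusted p = 0.000883). Foxl1 (ENSMUSG00000097084, chromosome 8, 121127940 to 121130644, plus strand), a marker of the mesenchymal cells beneath the gut epithelium, had 0.156, 0.0366 and 0.205 CPM in Kitl_OE and 1.57, 0.561 and 1.98 CPM in Egfp_OE libraries (log2 fold change -3.33, SE 0.61, adjusted p = 0.00171). Both genes were lower in every Kitl_OE library than in any Egfp_OE library.

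The gap between Foxf1 and Foxc2 is 28 kb and that between Foxc2 and Foxl1 9.0 kb. Fendrr, a long noncoding RNA gene that starts 1.3 kb from Foxf1 and is read in the other direction, had 17.3, 18.5 and 17.7 CPM in Kitl_OE and 2.63, 2.24 and 1.11 CPM in Egfp_OE libraries (log2 fold change 3.16, SE 0.68, adjusted p = 0.00471), a rise close to that of Foxf1. Mthfsd, which lies between Foxf1 and Foxc2, rose by a smaller amount (log2 fold change 0.60, SE 0.16, adjusted p = 0.0151), and its call was lost without Kitl_OE replicate 2 (log2 0.51). The call of Mthfsd was also lost under scaling to spike-in RNA. In shKitl against shCtrl cells the 3 forkhead genes had the same signs, but none passed: Foxf1 had a log2 fold change of 1.69 (adjusted p = 0.263), Foxc2 of -1.89 (adjusted p = 0.21) and Foxl1 of -1.25 (adjusted p = 0.269). In Egfp_OE against shCtrl cells, which share a group with each of the other comparisons, the values were 0.21, -1.93 and -1.26, with no call. A predicted read-through gene, Gm20388, spans all 3 and had no count.

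**Figure D3:**
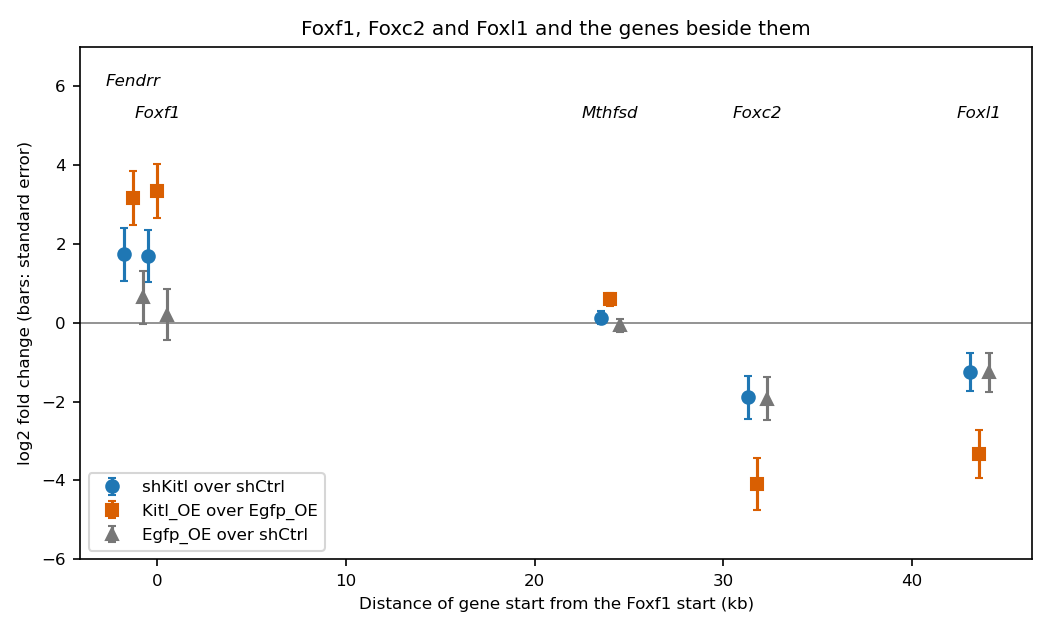
Points give log2 fold changes (bars, standard errors) of Fendrr, Foxf1, Mthfsd, Foxc2 and Foxl1 against the distance of each gene's start from that of Foxf1, in kb. In Kitl_OE over Egfp_OE cells the values change from 3.34 at Foxf1 to -4.09 at Foxc2 over 31.8 kb; the other comparisons are shown beside them and hold no call.

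Foxf2, the close relative of Foxf1 on chromosome 13, is among the 8 members with the highest TPM and passed in no comparison. It had 40.7, 43.6 and 45.2 CPM in Kitl_OE, 33.2, 19.9 and 40.2 CPM in Egfp_OE, 34.3, 23.6 and 28.5 CPM in shKitl and 38.2, 34.7 and 32.8 CPM in shCtrl libraries. Its largest difference was in Kitl_OE against Egfp_OE cells (log2 fold change 0.47, SE 0.23, adjusted p = 0.134). All Kitl_OE values of Foxf2 were above all Egfp_OE values there, and it passed without Egfp_OE replicate 3. Its neighbour Foxq1, 64.8 kb away, did not pass either (log2 fold change -0.04). Foxc1, the relative of Foxc2 in eye and skull mesenchyme, averaged 16.8 ± 0.915 CPM in Kitl_OE and 21 ± 5.86 CPM in Egfp_OE cells and did not pass (log2 fold change -0.32, SE 0.24, adjusted p = 0.326). So of each pair of relatives, Foxf1 and Foxf2 or Foxc1 and Foxc2, 1 gene passed and the other did not; the difference within a pair was not tested.

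Genes of Hedgehog signalling, which acts upstream of Foxf1, Foxf2 and Foxl1 in gut mesenchyme, did not share 1 direction. Of 15 genes in the list, which also held the growth factor gene Bmp4, 11 were tested. In Kitl_OE against Egfp_OE cells 2 rose, Bmp4 among them, and 5 fell (median log2 fold change -0.14). The Hedgehog-binding inhibitor gene Hhip averaged 0.0991 ± 0.0582 CPM in Kitl_OE cells, against 7.09 ± 3.76 CPM in Egfp_OE cells (log2 fold change -6.12, adjusted p = 8.55e-05). The coreceptor gene Gas1 changed by -4.78 (adjusted p = 0.000277) and the effector gene Gli2 by -2.53 (adjusted p = 0.00784). Bmp4, a growth factor gene that FOXF1 can regulate, averaged 50.8 ± 7.25 CPM in Kitl_OE cells, against 1.01 ± 0.277 CPM in Egfp_OE cells (log2 fold change 5.65, adjusted p = 0.00035). Foxf1 thus rose in the cells in which Gli2, Gas1 and Hhip fell. No gene of the list passed in the other comparisons.

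Of 12 mesothelial markers 6 were tested, and all 6 rose in Kitl_OE against Egfp_OE cells. The list summed to 377 to 631 CPM in Kitl_OE and 16.6 to 31.1 CPM in Egfp_OE libraries. It summed to 109 to 189 CPM in shKitl and 76.6 to 103 CPM in shCtrl libraries. Calb2 was at 0 in Kitl_OE and shCtrl libraries. In Egfp_OE against shCtrl cells their median log2 fold change was -2.14 and 1 of the 6 fell, whereas Foxf1 had a log2 fold change of 0.21 there. Endothelial markers, a setting of Foxc2 and Foxf1, were low: 4 of 10 were tested, 1 rose and 1 fell, and the list summed to 26.6 to 29.8 CPM in Kitl_OE and 13 to 15 CPM in Egfp_OE libraries, with Emcn, Cldn5 and Erg at 0 in Kitl_OE and Tie1 and Erg at 0 in Egfp_OE libraries. Their part in the results for Foxf1 and Foxc2 was not tested.

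FOXA genes of the endoderm were low and fell in Kitl_OE cells. Foxa1 (ENSMUSG00000035451, chromosome 12, 57540628 to 57546916, minus strand) had 0.0389, 0.110 and 0.0341 CPM in Kitl_OE, 0.887, 0.240 and 0.503 CPM in Egfp_OE, 1.67, 1.06 and 1.05 CPM in shKitl and 1.12, 2.17 and 1.86 CPM in shCtrl libraries. Its Kitl_OE values were below all others (log2 fold change -3.09, SE 0.65, adjusted p = 0.00393). The call did not hold on log2(TPM + 1), and with only the overexpression libraries in the fit the filter left the gene untested. Foxa2 had 0.117, 0.366 and 0.444 CPM in Kitl_OE, 0.716, 1.08 and 1.28 CPM in Egfp_OE, 3.45, 1.42 and 0.859 CPM in shKitl and 2.14, 1.18 and 1.06 CPM in shCtrl libraries. It passed narrowly (log2 fold change -1.70, SE 0.61, adjusted p = 0.0494), and the call was lost without any of Kitl_OE replicates 1, 2 and 3, any of Egfp_OE replicates 1, 2 and 3, shKitl replicate 2 or any of shCtrl replicates 2 and 3 (log2 -2.03 to -1.30). The windows of Foxa1, whose RefSeq start lies 805 bases inside the gene as given above, and of Sox12 are shown because they were the only ones of expressed members, 2 of 29 (6.9%), with the forkhead word TGTTTAC (or GTAAACA), and both genes fell; capitals mark that word and those named above, and in Foxa1 CCAAT and TTATA share bases.
Foxa1 promoter, chr12:57546112-57546361, minus strand: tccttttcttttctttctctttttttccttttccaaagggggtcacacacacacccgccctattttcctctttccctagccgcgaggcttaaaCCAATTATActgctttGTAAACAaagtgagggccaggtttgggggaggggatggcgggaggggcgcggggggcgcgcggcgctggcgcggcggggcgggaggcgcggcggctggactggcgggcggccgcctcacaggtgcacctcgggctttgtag
Sox12 promoter, chr2:152398047-152398296, minus strand: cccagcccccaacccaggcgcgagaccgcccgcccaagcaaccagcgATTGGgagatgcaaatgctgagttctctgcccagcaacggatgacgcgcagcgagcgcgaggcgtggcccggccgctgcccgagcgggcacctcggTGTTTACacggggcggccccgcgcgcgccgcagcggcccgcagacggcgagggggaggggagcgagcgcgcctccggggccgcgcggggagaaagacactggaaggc
The word was in 3.17% of all windows. The SOX word ACAATG (or CATTGT) was in the windows of Foxp1 and Sox5, also 2 of 29, against 10.7% of all windows. Neither gene passed edgeR's test in any comparison, and DESeq2 called Sox5 in Egfp_OE against shCtrl cells.

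Foxs1, Foxl2 and Foxk2 were the remaining forkhead genes that fell. Foxs1, a gene of pericytes and neural crest derivatives, had 0, 0 and 0.0341 CPM in Kitl_OE and 0.658, 0.962 and 1.61 CPM in Egfp_OE libraries, and 0.604, 0.620 and 0.261 CPM in shKitl and 1.05, 0.236 and 0.212 CPM in shCtrl libraries. With 1 count over the Kitl_OE libraries against 95 over the Egfp_OE libraries, the ratio of Egfp_OE to Kitl_OE was 87.2 (exact 95% interval 15.3 to 3478, counting error only), and the test gave adjusted p = 0.0012. Foxl2, the factor of ovarian granulosa cells, had 0, 0.0366 and 0.0683 CPM in Kitl_OE, 0.258, 0.160 and 0.269 CPM in Egfp_OE, 1.17, 2.70 and 3.59 CPM in shKitl and 1.58, 2.64 and 3.05 CPM in shCtrl libraries. It had 3 counts in Kitl_OE against 21 in Egfp_OE libraries, so the ratio of Egfp_OE to Kitl_OE was 6.42 (exact 95% interval 1.92 to 33.6), and the call (adjusted p = 0.027) was lost without any of Kitl_OE replicates 1 and 2 or any of Egfp_OE replicates 1 and 3 (log2 -2.53 to -2.02). The antisense gene Foxl2os, which overlaps it by 12 bases, had 2 counts in Kitl_OE, 44 in Egfp_OE, 325 in shKitl and 266 in shCtrl libraries. Foxk2 (ENSMUSG00000039275, chromosome 11, 121259990 to 121309896, plus strand) had 107, 106 and 122 CPM in Kitl_OE and 209.5, 111 and 225 CPM in Egfp_OE libraries, which overlap, with Egfp_OE replicate 2 as low as the Kitl_OE libraries (log2 fold change -0.70, SE 0.24, adjusted p = 0.0418). Its call was lost without any of Kitl_OE replicates 1, 2 and 3, any of Egfp_OE replicates 1 and 3, shKitl replicate 1 or any of shCtrl replicates 2 and 3 (log2 -0.75 to -0.52). In the hairpin lines Foxk2 had 123, 125 and 174 CPM in shKitl and 168, 192 and 198 CPM in shCtrl libraries.

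Of the 37 expressed members 11 have a single exon in the annotation, and 7 of these fell in Kitl_OE against Egfp_OE cells (Sox2, Sox11, Foxc2, Foxd1, Foxl1, Foxl2 and Foxs1) and none rose, with a median log2 fold change of -2.53; over all genes 18.9% fell and 15.4% rose. The other 4 (Sox4, Foxc1, Foxd2 and Foxq1) did not pass. Of the 26 members with more exons 7 fell and 8 rose. No set test was run, and these members were not chosen at random.

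Of the 4 FOXO genes, Foxo6 and Foxo3 rose and none fell. Foxo6, a FOXO gene of brain and liver, had 9.30, 12.4 and 8.30 CPM in Kitl_OE libraries and 0.343, 0.521 and 0.537 CPM in Egfp_OE libraries, the highest fold change of all members (log2 fold change 4.42, SE 0.49, adjusted p = 7.60e-05). It was as low in shKitl libraries, at 0.675, 0.876 and 0.411 CPM, and in shCtrl libraries, at 0.724, 0.276 and 0.170 CPM, as in Egfp_OE libraries. On the TPM scale the Kitl_OE libraries stood at 9.59, 13.9 and 9.53. Foxo3 (ENSMUSG00000048756, chromosome 10, 42181841 to 42276755, minus strand), a broadly expressed factor of stress resistance and quiescence, had 115, 115 and 104 CPM in Kitl_OE, 65.1, 42.1 and 69 CPM in Egfp_OE, 99.4, 139 and 69.6 CPM in shKitl and 86.5, 57.9 and 50.9 CPM in shCtrl libraries. It rose without overlap in Kitl_OE cells (log2 fold change 0.92, SE 0.28, adjusted p = 0.0243), a call that was lost without any of Kitl_OE replicates 1 and 2 (log2 0.91 to 0.92). Foxo4 had 66.4, 71.8 and 49.95 CPM in Kitl_OE, 39.4, 37.3 and 46.4 CPM in Egfp_OE, 37.6, 53.6 and 31.8 CPM in shKitl and 35.7, 24.6 and 23.5 CPM in shCtrl libraries. All Kitl_OE values were above all Egfp_OE values, and the difference missed the threshold in edgeR's test (log2 fold change 0.61, SE 0.23, adjusted p = 0.0628). DESeq2 called Foxo4 there (adjusted p = 0.0487). Foxo1, the main FOXO factor of insulin action, averaged 15.4 ± 0.754 CPM in Kitl_OE and 13 ± 0.715 CPM in Egfp_OE cells and did not pass (log2 fold change 0.25, SE 0.21, adjusted p = 0.4).

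Of 24 known FOXO targets 22 were tested, and in Kitl_OE against Egfp_OE cells 9 rose and 1 (Bnip3) fell, with a median log2 fold change of 0.67 against -0.07 for all genes. Klf15, a metabolic regulator, averaged 20.3 ± 7.20 CPM in Kitl_OE cells, against 4.10 ± 2.91 CPM in Egfp_OE cells (log2 fold change 2.31, adjusted p = 0.0227), a call lost without any of Kitl_OE replicates 1 and 2 or any of Egfp_OE replicates 1 and 3 (log2 2.02 to 2.23). Txnip, which restrains glucose uptake, averaged 162 ± 15 CPM in Kitl_OE cells, against 49.8 ± 26.3 CPM in Egfp_OE cells (log2 fold change 1.70, adjusted p = 0.022), a call lost without Kitl_OE replicate 2 or any of Egfp_OE replicates 1 and 3 (log2 1.47 to 1.64). Cat, the catalase gene, rose by log2 1.28 (adjusted p = 0.00204) and Cited2 by 0.99 (adjusted p = 0.00159); both calls were lost under scaling to spike-in RNA. The genes of the kinases, phosphatase and acetylases that act on FOXO proteins mostly did not pass: of 21 tested 1 rose and 3 fell. Sgk1, the gene of a kinase that inhibits FOXO3, averaged 18.9 ± 4.80 CPM in Kitl_OE cells, against 81 ± 14.8 CPM in Egfp_OE cells (log2 fold change -2.10, adjusted p = 8.55e-05), and Pik3r1, of the regulatory subunit of PI3K, changed by -1.08 (adjusted p = 0.00809). The call of Pik3r1 was lost under scaling to spike-in RNA, on log2(TPM + 1) and on log2(TPM + 0.1). Crebbp (-0.45) and Stk4 (0.66) also passed, but the call of Crebbp was lost without any of Kitl_OE replicates 2 and 3, any of Egfp_OE replicates 1 and 2, any of shKitl replicates 1 and 2 or any of shCtrl replicates 1, 2 and 3 (log2 -0.44 to -0.34) and that of Stk4 without any of Kitl_OE replicates 1, 2 and 3, any of Egfp_OE replicates 2 and 3 or any of shCtrl replicates 2 and 3 (log2 0.44 to 0.75). No gene of either list passed in the other comparisons. In shKitl against shCtrl cells, where 0% of all genes passed, the FOXO targets had a median log2 fold change of 0.54 (all genes 0.05). In Egfp_OE against shCtrl cells their median was 0.18 (all genes 0.05). RNA levels do not show where FOXO proteins lie in the cell.

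Of the 4 FOXP genes, Foxp2 and Foxp4 rose. Foxp2, a gene of brain, lung and gut mesenchyme that is known for its role in speech in humans, had 39.8, 29.8 and 32.7 CPM in Kitl_OE and 3.66, 6.77 and 2.11 CPM in Egfp_OE libraries (log2 fold change 3.03, SE 0.46, adjusted p = 0.000598). It had 15, 16.1 and 5.04 CPM in shKitl and 5.00, 5.24 and 4.87 CPM in shCtrl libraries, so Kitl_OE was well above all other groups. Foxp4 (ENSMUSG00000023991, chromosome 17, 47867133 to 47924645, minus strand), a partner of FOXP1 and FOXP2 in lung and gut epithelium, had 93.2, 101 and 105 CPM in Kitl_OE, 63.8, 43.4 and 77.6 CPM in Egfp_OE, 58.9, 62.8 and 67.8 CPM in shKitl and 64.1, 73.8 and 70.6 CPM in shCtrl libraries. Its rise was smaller (log2 fold change 0.69, SE 0.19, adjusted p = 0.0153) and did not pass under spike-in scaling, on log2(TPM + 1), on log2(TPM + 0.1) or with only the overexpression libraries in the fit. Foxp1 averaged 78.8 ± 6.91 CPM in Kitl_OE and 81.4 ± 20.05 CPM in Egfp_OE cells and did not pass (log2 fold change -0.05, SE 0.19). Foxp3 did not pass either (log2 fold change -0.41, SE 0.44). Of the blood and regulatory T cell markers 3 were tested and 2 (Csf1r and Lyz2) rose, and the T cell genes Cd3e, Il2ra and Ctla4 were at 0 in Kitl_OE and Egfp_OE libraries.

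Foxj2 and Foxn3 completed the list of genes that rose. Foxj2 had 65.3, 55 and 60.7 CPM in Kitl_OE, 35.5, 20.6 and 40.04 CPM in Egfp_OE, 38.7, 43 and 35.6 CPM in shKitl and 36.6, 31.7 and 30.6 CPM in shCtrl libraries (log2 fold change 0.91, SE 0.22, adjusted p = 0.00776). Foxn3, a forkhead repressor, had 19.9, 16.3 and 15.7 CPM in Kitl_OE, 8.73, 3.77 and 7.92 CPM in Egfp_OE, 8.92, 11.6 and 4.97 CPM in shKitl and 8.89, 6.03 and 5.89 CPM in shCtrl libraries (log2 fold change 1.34, SE 0.36, adjusted p = 0.0139). In both genes all Kitl_OE values were above every value of the other 3 groups, and both calls were lost under scaling to spike-in RNA. Their relatives Foxj3 (0.21) and Foxn2 (0.33) had smaller log2 fold changes and did not pass. Foxj1, the switch of motile cilia, was low and did not pass (log2 fold change -1.39, SE 0.53, adjusted p = 0.0605); of 18 genes it controls 7 were tested and 1, Tekt2, rose (log2 fold change 1.81, adjusted p = 0.0031). The other tested members, Foxd2 (log2 fold change 0.82), Foxk1 (0.53) and Foxn1 (-1.33), did not pass. Foxd2 did pass without Egfp_OE replicate 2, and Foxn1 with the replicate block and with the P number as covariate.

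**Figure D4:**
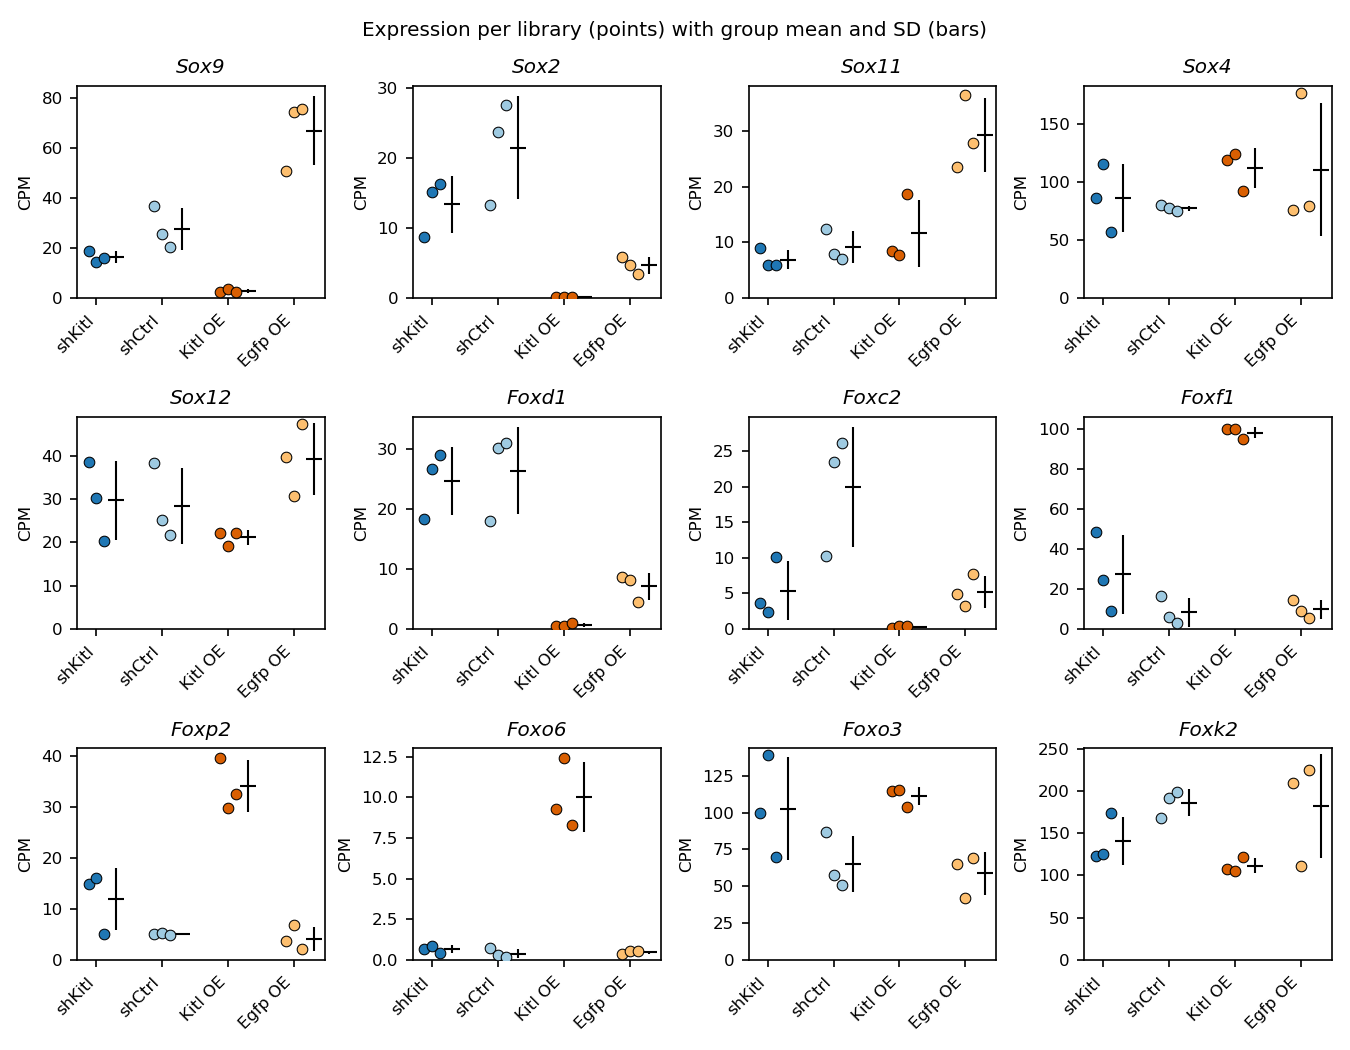
Each panel gives the CPM of 1 member in the 3 libraries of each group (points) with the group mean and SD (bars), on a linear axis from 0. Sox9, Sox2, Foxd1 and Foxc2 are lowest and Foxf1, Foxp2 and Foxo6 highest in the Kitl_OE libraries, and Sox4 shows 1 high Egfp_OE value of 177 CPM.

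The knockdown comparison, shKitl against shCtrl, asked what differs in cells with less Kitl. No member passed: edgeR's quasi-likelihood test called 0 of 37, as it called 0% of all 15271 genes. Kitl, the target of the hairpin, did not pass either, though its groups did not overlap (log2 fold change -1.46, SE 0.26, adjusted p = 0.121). A missing call here thus does not show that a member was unchanged. At an unadjusted p under 0.05 there were 11 members, against 15.8% of all genes, and the median log2 fold change of the 37 was -0.04 (all genes 0.05). DESeq2 called 1 member, Foxc2, and 2.8% of its 15296 genes. In 5 members the groups did not overlap: Foxc1 was higher in every shKitl library (11% of all genes were), and Foxc2, Foxl1, Foxn2 and Sox9 were lower (8.64% of all genes were).

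Foxc2 had 3.59, 2.41 and 10.1 CPM in shKitl and 10.3, 23.4 and 26.1 CPM in shCtrl libraries. Its log2 fold change was -1.89 (SE 0.55, adjusted p = 0.21) in edgeR's test and -1.92 (adjusted p = 0.0252) in DESeq2, and in edgeR it passed without shKitl replicate 3 (-2.74, adjusted p = 0.0348). The alternatives for Foxc2 gave adjusted p-values from 0.0252 to 0.706. Foxl1 had 1.17, 0.949 and 2.05 CPM in shKitl and 2.96, 3.39 and 3.60 CPM in shCtrl libraries (log2 fold change -1.25, SE 0.49, adjusted p = 0.269). Foxc1 averaged 27.8 ± 8.53 CPM in shKitl and 16.1 ± 0.405 CPM in shCtrl cells (log2 fold change 0.79, SE 0.24, adjusted p = 0.216). The paralogs Foxc1 and Foxc2 thus had opposite signs here, with neither past the threshold.

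Foxf1 had 48.4, 24.3 and 9.08 CPM in shKitl libraries with P numbers 13, 14 and 15 and 16.5, 5.95 and 2.71 CPM in shCtrl libraries with P numbers 14, 15 and 16. Within each hairpin line it was lower at each higher P number, and the ranges of the groups overlapped. At the P numbers that both lines share, shKitl had 24.3 CPM against 16.5 CPM in shCtrl at 14, and 9.08 against 5.95 CPM at 15. Foxc2 at the same P numbers had 2.41 CPM in shKitl against 10.3 CPM in shCtrl at 14, and 10.1 against 23.4 CPM at 15. Sox2 at these P numbers had 15.2 CPM in shKitl against 13.3 CPM in shCtrl at 14, and 16.3 against 23.7 CPM at 15, with no single direction. These pairs are 1 library a side and carry no test. Foxp2, at 12 ± 6.07 CPM in shKitl and 5.04 ± 0.187 CPM in shCtrl cells (SD, n = 3 each), had a log2 fold change of 1.25 (adjusted p = 0.243), with shKitl replicate 3 at the shCtrl level.

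**Figure D5:**
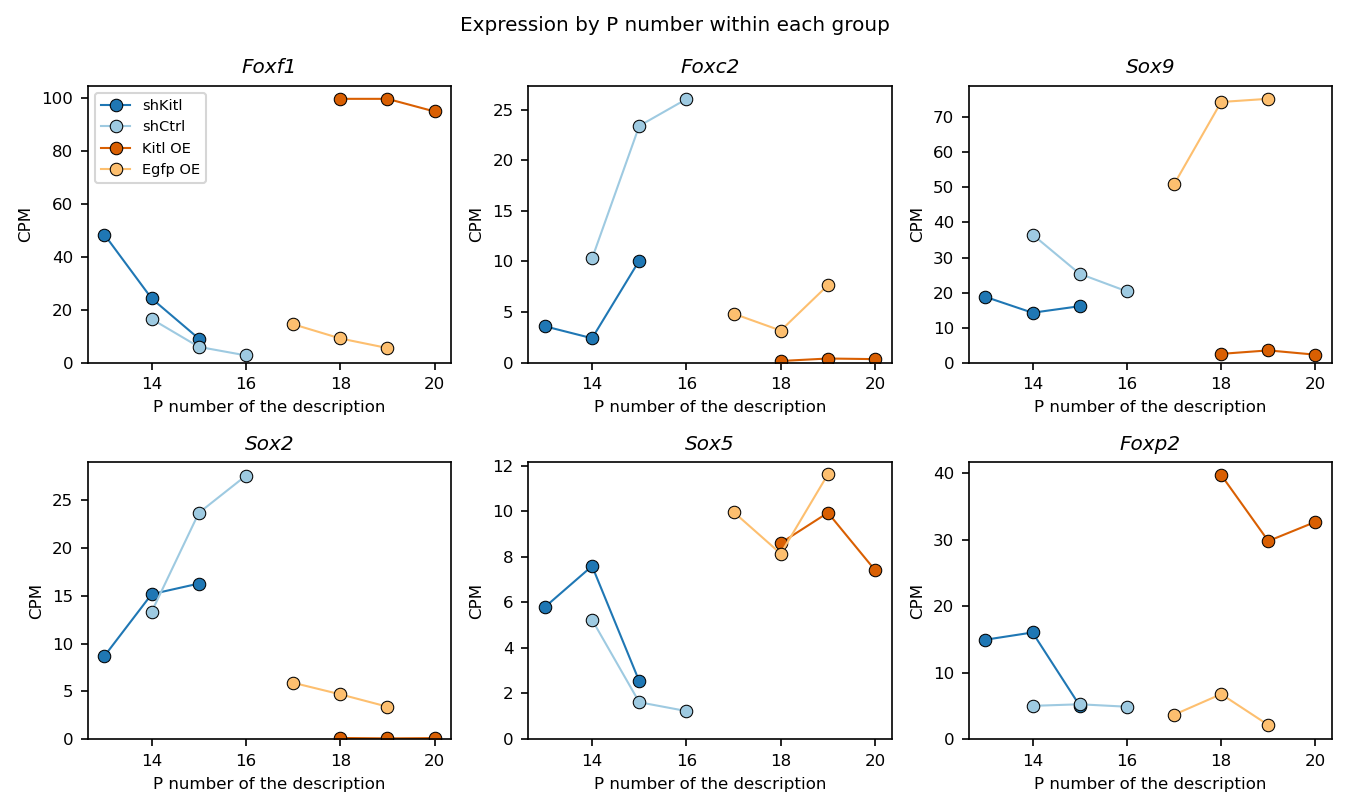
CPM of 6 members against the P number in the description of each library, with lines joining the 3 libraries of a group. Foxf1 is lower at higher P numbers in shKitl, shCtrl and Egfp_OE, from 14.5 to 5.50 CPM in Egfp_OE libraries, and between 95.1 and 99.8 CPM in Kitl_OE libraries.

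The control lines were set against each other to show how far members differ where Kitl was not the aim. In Egfp_OE against shCtrl cells 6 of 37 members passed (16.2%), against 1.25% of all genes. Sox9 and Sox11 rose (0.511% of all genes rose), and Sox13, Foxl2, Sox2 and Foxd1 fell (0.74% of all genes fell). Sox9 had a log2 fold change of 1.29 (SE 0.25, adjusted p = 0.0386) and Sox11 of 1.68 (SE 0.36, adjusted p = 0.0496). Sox13 changed most, by -4.10 (SE 0.42, adjusted p = 0.0096), then Foxl2 by -3.36 (adjusted p = 0.0247), Sox2 by -2.21 (adjusted p = 0.0247) and Foxd1 by -1.90 (adjusted p = 0.032). The groups of all 6 genes did not overlap, as the values given above show. Of all genes 14.6% were higher and 13.9% lower without overlap. DESeq2 called 9 members, with Foxa1, Foxc2 and Sox5 in addition, and 9.2% of its genes (5.07% higher, 4.13% lower).

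None of these 6 calls held in every alternative. The P numbers of Egfp_OE (17, 18 and 19) and shCtrl (14, 15 and 16) do not overlap, and with the P number as a covariate 0 members passed. The log2 fold changes in that fit were -2.66 for Sox2, -2.34 for Foxd1, -4.37 for Sox13, -4.86 for Foxl2, 1.58 for Sox9 and 1.68 for Sox11. Their adjusted p-values ran from 0.0984 to 0.181 in edgeR's test. Since the P numbers of these 2 lines do not overlap, P number and line cannot be told apart here. With only these 6 libraries in the fit 0 members and 0 of all genes passed. Without Egfp_OE replicate 2 the count of members was 5, and 336 of all genes passed, against 191 in the main fit. The call of Sox13 was lost without Egfp_OE replicate 3 (log2 -3.91), that of Foxl2 without Egfp_OE replicate 3 or any of shCtrl replicates 2 and 3 (log2 -3.48 to -3.17) and that of Sox2 without Egfp_OE replicate 3 or any of shCtrl replicates 2 and 3 (log2 -2.14 to -2.00). Foxd1 was lost without Kitl_OE replicate 2, Egfp_OE replicate 3 or any of shCtrl replicates 2 and 3 (log2 -1.91 to -1.65), Sox9 without any of Kitl_OE replicates 1, 2 and 3, Egfp_OE replicate 3, any of shKitl replicates 1 and 2 or any of shCtrl replicates 2 and 3 (log2 1.10 to 1.28), and Sox11 without any of Kitl_OE replicates 1 and 2, any of Egfp_OE replicates 2 and 3, any of shKitl replicates 1, 2 and 3 or any of shCtrl replicates 2 and 3 (log2 1.49 to 1.72).

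Egfp_OE is both the line tested here and the control of Kitl_OE, so these comparisons share libraries and their values are only set side by side. Sox2 had log2 fold changes of -5.52 in Kitl_OE against Egfp_OE and -2.21 in Egfp_OE against shCtrl cells, Foxd1 of -3.44 and -1.90, Sox13 of -1.55 and -4.10, and Foxl2 of -2.53 and -3.36, all lower. Sox9 had -4.61 and 1.29, and Sox11 -1.33 and 1.68. For Sox11 the mean was 11.6 ± 6.08 CPM in Kitl_OE and 9.12 ± 2.92 CPM in shCtrl cells, with overlapping libraries, and the fall in Kitl_OE is relative to a control line in which the gene was high. For Sox9 the Kitl_OE libraries, at 2.25 to 3.48 CPM, were also below all libraries of both hairpin lines.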

How the data were processed

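Polyadenylated RNA of 12 libraries was sequenced. The authors deposited raw counts per gene. The authors also deposited TPM values of the same libraries, that is, counts scaled by gene length and by library total. The submitters' processing notes name STAR 2.5.2b, Subread 1.5.2 with featureCounts, DESeq2 and GRCm38 (mm10), without their roles. No source used here gives the strand setting, the gene lengths behind TPM or the annotation release. Each table held 49763 entries; 92 ERCC spike-in RNAs stayed out of library sizes and tests, and entries without a symbol held under 0.005% of counts. GENCODE M21 held 49326 of the 49671 gene IDs and all 62 members.

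Counts were fitted with edgeR 4.0.16 (R 4.3.3): filterByExpr with the group, TMM, a robust quasi-likelihood model with 1 coefficient per group over all 12 libraries, and Benjamini-Hochberg adjustment over 15271 genes, threshold 0.05. Standard errors came from the fold change and F value. CPM values are TMM-scaled. The fit was tested on simulated data. Alternatives were other scalings, DESeq2 1.42.0, limma 3.58.1 on log2(TPM + 1) and log2(TPM + 0.1), other count filters, a replicate block, the P number as covariate, the 2 groups alone, adjusted p under 0.01 and each library left out.

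Per-library values are given for called members with a mean of at least 1 TPM in a group and for the 8 highest by TPM, and up to 4 called genes per pathway list. The values of 1 expressed member and of 1 marker gene are not reported here, though both are in the counts. Members and lists were chosen with earlier results of these data known. Counting intervals and floors cover counting error only.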

Additional observations from a re-analysis of the deposited data

How the results depend on the processing

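No member changed the sign of a called value under any of the 23 alternatives tried. In Kitl_OE against Egfp_OE cells 22 members passed, against 12 at an adjusted p under 0.01, 12 under spike-in scaling, 14 on log2(TPM + 1) and 14 to 23 with 1 library left out; over all genes the 5236 calls became 2822 at 0.01, 2351 under spike-in scaling and 3501 to 6150 with 1 library left out. In shKitl against shCtrl cells edgeR called 0 members and 0 genes; DESeq2 called 1 member and 428 genes, limma on log2(TPM + 1) 7 genes, the fit of all genes with any count 23 genes, and leaving out 1 library gave 0 to 1 member and 0 to 277 genes. In Egfp_OE against shCtrl cells the 6 members became 1 at an adjusted p under 0.01, 1 under spike-in scaling, 3 with the replicate block, 0 with the P number as covariate, 0 with only the 2 groups fitted and 0 to 8 with 1 library left out. The 191 genes there became 1 at 0.01, 10 under spike-in scaling, 1460 in DESeq2, 104 on log2(TPM + 0.1), 349 with any count, 0 with the 2 groups fitted alone, 82 with the replicate block, 0 with the P number, and 0 to 771 with 1 library left out. The cause of these shifts was not tested. Spike-in scaling moved the median log2 fold change of all genes to -0.34 in Egfp_OE against shCtrl cells (0.05 under TMM) and to -0.06 in shKitl against shCtrl cells (0.05 under TMM).

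Deviations of same-numbered libraries correlated at 0.151, -0.259 and 0.527 across shKitl and shCtrl and at 0.0262, 0.204 and 0.169 across Kitl_OE and Egfp_OE. Those of differently numbered libraries ran from -0.609 to 0.556 across shKitl and shCtrl and from -0.176 to 0.108 across Kitl_OE and Egfp_OE. These correlations do not settle whether replicate numbers pair the samples. With the replicate block 21 members passed in Kitl_OE against Egfp_OE cells and 0 in shKitl against shCtrl cells. Members with few counts, such as Sox8, Foxl2, Foxs1, Foxp3 and, in the overexpression lines, Sox13, and all silent members are limited by depth.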
